A study of Mus musculus with 20 samples.

Results

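The 40 genes described here encode the kinetochore, the protein assembly that joins a chromosome's centromere to the spindle, and the spindle checkpoint, which watches over that attachment. They were taken as a fixed list of gene symbols, and all 40 had a probe among the 26159 named genes on the array. A gene with several probes was read from the brightest of them (by mean log2 intensity of all arrays). By role, 13 of the genes belong to the inner kinetochore, 4 to CENP-A and its loading, 6 to the outer kinetochore, 2 to the kinetochore motor and corona, 3 to the Ska complex, 6 to the spindle checkpoint, 2 to the RZZ complex and 4 to the chromosomal passenger complex.

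Pancreatic islets of 20 male B6.V-Lep ob/ob mice, which make no working leptin and become obese, were measured on 1-colour arrays. All mice were fed a diet labelled HFD, for 18 weeks (groups young_HFD and young_CRD) or 39 weeks (aged_HFD and aged_CRD), and the 2 CRD groups then received a diet labelled CRD for 2 days. Each group held 5 mice with 1 array each, and neither diet name is written out in the labels. The labelled age equals the weeks on HFD, so age and length of feeding cannot be told apart, and there was no group with a lean genotype and none that had never eaten HFD. Islets were picked by hand after collagenase digestion, so each value is a mixture of all cells in the islet, in which more dividing cells and more RNA per dividing cell cannot be told apart. Ins2, the main islet hormone gene, was between 17.82 and 17.94 on the log2 scale on all arrays, where 17.94 was the highest value any probe could take.

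At each centromere, histone H3 is partly replaced by the variant CENP-A, on which a constitutive network of inner kinetochore proteins is built. In mitosis that network recruits the Mis12 and Ndc80 complexes, which bind spindle microtubules, while Mad and Bub proteins at unattached kinetochores hold back the anaphase-promoting complex. Adult islet beta cells divide rarely, and many of these genes are known to be transcribed mainly in the later part of the cell cycle.

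Islets from mice given CRD for 2 days had higher levels of most kinetochore genes than islets from mice kept on HFD, at both ages. In the fit of all 26159 genes without a filter on dim genes, 26 of the 40 genes rose and 0 fell at 18 weeks (13.3% of all genes rose and 5.77% fell). At 39 weeks 17 rose and 0 fell (2.93% of all genes rose and 3.26% fell), and each of these 17 had also risen at 18 weeks. The median log2 fold change of the 40 genes was 1.22 at 18 weeks and 0.89 at 39 weeks, against 0.03 and 0.05 over all genes. Calls are an adjusted p under 0.05 from limma, with Benjamini-Hochberg adjustment over all genes fitted.

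A filter on dim genes left out part of the set. With the lowest 30% of genes by mean level left out (under a mean log2 intensity of 4.83), 18311 genes were fitted and 26 of the 40 remained, and a gene can pass such a limit through its CRD level alone. Of these 26, 15 rose and 1 fell at 18 weeks (17.0% and 7.89% of the genes fitted), and 10 rose and 0 fell at 39 weeks (3.5% and 4.84%). Birc5 (HFD means 1.99 and 1.77), Cenpf (3.33 and 3.27), Cenpa (3.30 and 3.49) and Cenpl (4.41 and 4.52) passed the limit only through their CRD arrays. Birc5, Cenpf, Cenpa and Cenpl each also rose at both ages in the fit of all genes. Mad2l1 (HFD means 4.22 and 4.92) and Mis18a (4.72 and 5.28) had an HFD mean under the limit at 18 weeks only. The Mad2l1 rise at 39 weeks was a call in the filtered fit but not in the fit of all genes. The 14 below the limit were Cenph, Cenpk, Cenpn, Cenpp, Cenpq, Oip5, Ndc80, Dsn1, Cenpe, Ska1, Ska2, Bub1b, Ttk and Zwilch. Below, values come from the filtered fit for the 26 genes and from the fit of all genes for the 14. The background of dim probes is not known, so the folds of these 14 hold for the deposited scale. With an offset of 16 added before the log2, Cenpe gave 2.98 at 18 weeks in place of 4.72, Ndc80 2.51 in place of 4.14, Dsn1 1.13 in place of 3.33 and Oip5 0.58 in place of 1.95, each still a call.

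**Figure D1:**
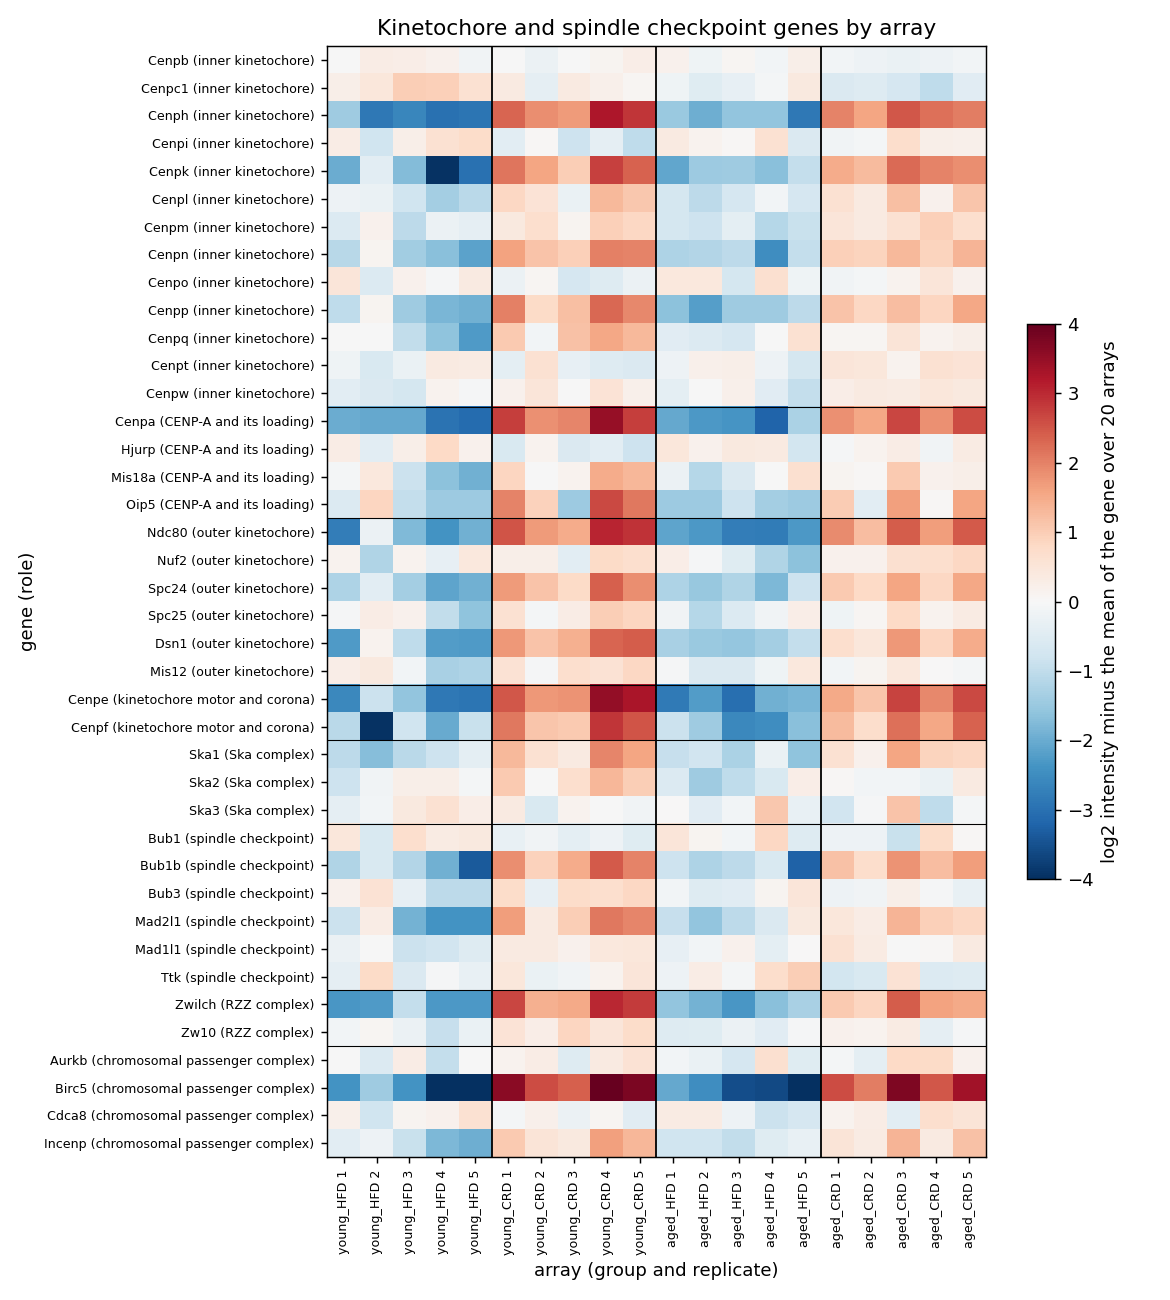
Log2 intensity of the 40 genes (rows, in order of role) on each of the 20 arrays (columns, by group), as the difference from the gene's own mean over all arrays, with colours saturating at 4 in both directions. Rows such as Birc5, Cenpa, Cenpe and Cenph are dark blue on the HFD arrays and dark red on the CRD arrays at both ages, while rows such as Cenpb and Ska3 stay pale.

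The level of the whole set separated the diets on every array. Averaged over the 40 genes, the log2 intensity lay between 5.14 and 5.84 on the young_HFD arrays and between 6.81 and 7.71 on the young_CRD arrays. In the older mice it lay between 5.39 and 5.62 on HFD and between 6.68 and 7.36 after CRD. Gene by gene, 18 of the 40 were higher on all 5 CRD arrays than on any HFD array at 18 weeks and 0 were lower on all (6.46% and 2.45% of all genes). At 39 weeks 19 were higher without overlap and 0 lower (3.45% and 6.66%).

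**Figure D2:**
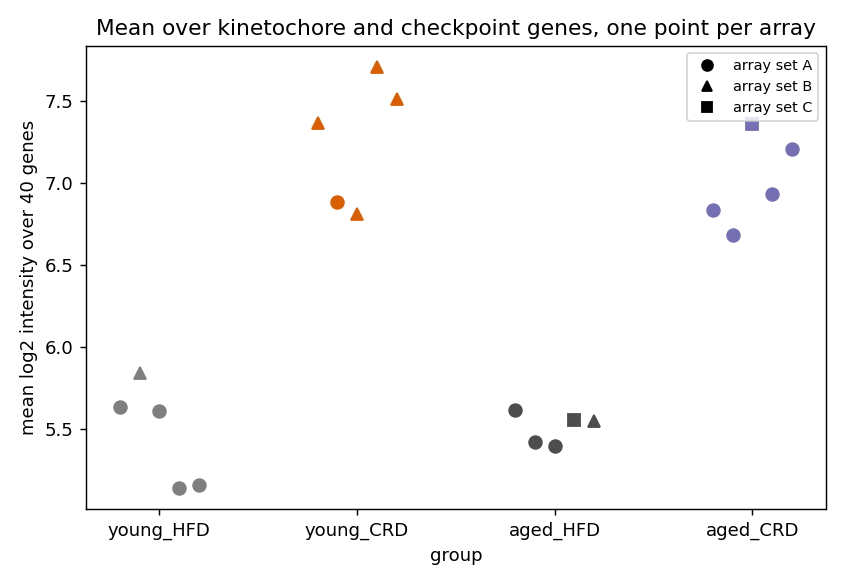
Mean log2 intensity over the 40 genes (y axis) for each array, by group, with the marker shape giving the array set described in the text. All CRD arrays lie at 6.68 or above and all HFD arrays at 5.84 or below, and the shapes are spread unevenly over the groups.

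The arrays also differed in ways that the labels do not name. They were clustered on 1315 genes of smell and taste receptors and cut into 3 sets, called A, B and C here. The number of sets was fixed for the clustering and is not a finding. Correlations were 0.925 to 0.978 inside a set and 0.847 to 0.916 across sets, a difference that the grouping itself favours. At 18 weeks the sets largely follow the diet, since 4 of 5 young_HFD arrays lie in set A and 4 of 5 young_CRD arrays in set B. At 39 weeks set A has 3 HFD and 4 CRD arrays, set C has 1 of each and set B has 1 HFD array. The labelling protocol names 2 kinds of primer without saying which array had which, and whether the sets follow the primer was not tested. With sets blocked in the fit of all genes, 22 genes rose and 1 fell at 18 weeks (5.62% and 4.45% of all genes), and 20 rose and 1 fell at 39 weeks (5.78% and 5.41%). With sets blocked in the filtered fit, 11 of 26 rose and 1 fell at 18 weeks (6.89% and 5.97% of the genes fitted), and 11 rose and 0 fell at 39 weeks (7.49% and 7.79%). Within a set, the median difference between CRD and HFD over the 40 genes at 18 weeks was 1.11 for set A arrays and 0.90 for those of set B. The same median at 39 weeks was 0.89 for set A arrays and 1.20 for the single pair of set C.

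Markers of acinar and islet cell types also differed between groups. Their counts come from the filtered fit, where 17.0% of all genes rose and 7.89% fell at 18 weeks. At 39 weeks 3.5% of all genes rose and 4.84% fell in that fit. Of 8 acinar marker genes, most of them for digestive enzymes, 7 rose at 18 weeks with a median log2 fold change of 2.51, while at 39 weeks 1 rose and 1 fell with a median of -2.36. The log2 of their summed level ranged from 9.74 to 15.32 in young_HFD, 12.55 to 15.46 in young_CRD, 15.31 to 16.13 in aged_HFD and 12.78 to 15.36 in aged_CRD. The median acinar change thus had opposite signs at the 2 ages, and how it bears on the kinetochore genes was not tested. Of the immune and stromal markers tested at 18 weeks, 1 of 6 macrophage genes, 1 of 3 T and B cell genes, 1 of 6 endothelial genes and 1 of 5 stellate and fibroblast genes rose, while 1 endothelial and 1 stellate and fibroblast gene fell. At 39 weeks 0 of each rose, and 1 macrophage, 1 endothelial and 2 stellate and fibroblast genes fell. Of 7 beta cell markers 0 rose and 5 fell at 18 weeks and 3 fell at 39 weeks, with Slc2a2, the glucose transporter, at -2.81 ± 0.48 and -3.42 ± 0.48. Of 3 alpha cell markers 1 rose at each age (Ttr, by 2.01 ± 0.21 and 1.55 ± 0.21) and 1 fell at 39 weeks, the 2 delta cell markers were not called, and the PP cell marker Ppy fell at 18 weeks. The part of these markers in the result was not tested.

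The centromeric histone itself was among the genes that moved most. Log2 intensities of Cenpa, which encodes CENP-A, were 3.75, 3.69, 3.66, 2.76 and 2.64 in young_HFD and 8.50, 7.54, 7.67, 9.20 and 8.50 in young_CRD. In the older mice they were 3.68, 3.44, 3.37, 2.53 and 4.45 on HFD and 7.54, 7.27, 8.38, 7.55 and 8.33 after CRD. Every CRD array was at least 7.27 and every HFD array at most 4.45, so the diets did not overlap at either age. The log2 fold change was 4.98 ± 0.36 (SE, limma adjusted p = 1.61e-08) at 18 weeks and 4.32 ± 0.36 (adjusted p = 1.24e-07) at 39 weeks. A second Cenpa probe gave 4.30 ± 0.37 and 3.99 ± 0.37.

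The probes of the CENP-A loading factors did not move as a block. Mis18a and Oip5, subunits of the complex that licenses centromeres for new CENP-A, had log2 fold changes at 18 weeks of 1.57 ± 0.42 (adjusted p = 0.0104) and 1.95 ± 0.63 (adjusted p = 0.0365, all genes fitted). Their differences at 39 weeks were 0.58 ± 0.42 (adjusted p = 0.487) and 2.08 ± 0.63 (adjusted p = 0.0556). Hjurp, the chaperone that carries CENP-A to centromeres, was the 1 gene of the 26 that fell at 18 weeks, by -0.69 ± 0.24 (adjusted p = 0.0455). That call was lost when all genes were fitted (adjusted p = 0.0562) and under set blocking (-0.17, adjusted p = 0.642). The Hjurp probe was bright, with a mean log2 intensity of 13.86 against a median of 5.19 over all probes. Whether it reads Hjurp alone was not tested. The Mis18a rise was also lost with the block (0.80, adjusted p = 0.149).

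Promoter sequence from RefSeq (GRCm38.p6) is shown for 7 genes, chosen because Cenpa, Cenpf and Birc5 rose at both ages, while Bub1, Cdca8, Ttk and Spc25 hold the same motifs and were not called in the fit of all genes. Genes of the later cell cycle often carry a CHR element (cell cycle genes homology region, searched as TTTGAA or TTCGAA) near the start site and CCAAT boxes (CCAAT) before it. Each line gives the bases from 120 before to 30 after the annotated start, read 5′ to 3′ along the gene, with CHR and CCAAT matches on either strand in capitals (on the reverse strand they read TTCAAA and ATTGG). The windows are Cenpa at chr5:30666766-30666915 on the plus strand, Cenpf at chr1:189688057-189688206 on the minus strand, Birc5 at chr11:117849117-117849266 on the plus strand, Bub1 at chr2:127831830-127831979 on the minus strand, Cdca8 at chr4:124936888-124937037 on the minus strand, Ttk at chr9:83834569-83834718 on the plus strand and Spc25 at chr2:69206184-69206333 on the minus strand.
Cenpa: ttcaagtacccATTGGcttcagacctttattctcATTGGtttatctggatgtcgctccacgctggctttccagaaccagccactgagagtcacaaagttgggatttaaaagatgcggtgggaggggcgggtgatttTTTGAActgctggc
Cenpf: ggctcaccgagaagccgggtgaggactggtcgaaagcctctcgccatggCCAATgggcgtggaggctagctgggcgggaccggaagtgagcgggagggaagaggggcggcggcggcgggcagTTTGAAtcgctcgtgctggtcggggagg
Birc5: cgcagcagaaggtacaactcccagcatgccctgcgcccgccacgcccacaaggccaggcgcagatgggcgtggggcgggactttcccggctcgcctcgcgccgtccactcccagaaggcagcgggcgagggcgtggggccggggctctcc
Bub1: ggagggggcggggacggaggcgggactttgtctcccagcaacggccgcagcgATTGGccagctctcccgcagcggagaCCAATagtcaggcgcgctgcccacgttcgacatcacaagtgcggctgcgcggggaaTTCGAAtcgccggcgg
Cdca8: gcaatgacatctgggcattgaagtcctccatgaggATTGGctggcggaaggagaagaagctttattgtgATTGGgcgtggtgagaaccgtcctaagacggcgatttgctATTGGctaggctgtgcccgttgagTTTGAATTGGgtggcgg
Ttk: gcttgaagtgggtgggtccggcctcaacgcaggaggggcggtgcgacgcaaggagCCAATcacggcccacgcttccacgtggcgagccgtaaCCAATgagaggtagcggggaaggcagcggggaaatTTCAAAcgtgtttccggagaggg
Spc25: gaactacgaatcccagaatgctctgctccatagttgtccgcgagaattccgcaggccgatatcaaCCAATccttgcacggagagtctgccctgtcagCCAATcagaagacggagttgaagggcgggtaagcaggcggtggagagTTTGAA
In the Cenpa window the CHR match begins at position 17, counting the start as 1, with CCAAT matches from positions -109 and -86, and in the Cdca8 window a CHR and a CCAAT match share 1 base.

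The motifs were common among kinetochore genes, both those called at 18 weeks in the fit of all genes and those not called there. Of the 40 genes, 35 had a promoter window of 250 bases before to 50 after the start, and Ska1, Zwilch, Spc24, Incenp and Aurkb had none in the table. A CHR match stood in 18 of 35 windows (51.4%, against 21.7% of 27025 genes), a CCAAT box in 22 (62.9%, against 41.1%) and both in 14 (40%, against 9.65%). An E2F match (TTCCCGCC or TTCGCGCC) stood in 6 (17.1%, against 3.10%). Among the 22 of these genes that rose at 18 weeks in the fit of all genes, 11 had a CHR match (50%), and among the 13 not called 7 had one (53.8%). Those 7 include Spc25 and Bub3, which rose in the filtered fit, and Hjurp, which fell in it. Whether the motif goes with the rise was not tested. Of the genes printed, which were chosen by their calls and motifs, Birc5 showed neither CHR nor CCAAT in the bases printed. Cenpa, Cenpf, Bub1, Cdca8, Ttk and Spc25 showed both. Bub1 counts as not called on its brightest probe, while its second probe rose by 1.31 ± 0.43 at 18 weeks when probes were fitted separately. A match describes the letters in the window and not a bound site.

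Inner kinetochore genes split between large rises and little change. In the fit of all genes, 8 of 13 rose at 18 weeks and 6 of 13 at 39 weeks. Cenph, a subunit of the CENP-H, -I, -K and -M group that links CENP-A chromatin to the outer kinetochore, is given by array here after its values were seen. On the log2 scale its intensities were 2.34, 0.88, 1.14, 0.78 and 0.84 in young_HFD and 6.08, 5.62, 5.45, 6.99 and 6.60 in young_CRD. In the older mice they were 2.26, 1.81, 2.19, 2.17 and 0.90 on HFD and 5.75, 5.34, 6.23, 5.97 and 5.79 after CRD. No HFD array came near any CRD array, and the log2 fold changes were 4.95 ± 0.34 (limma adjusted p = 2.87e-08) and 3.95 ± 0.34 (adjusted p = 5.19e-07). The HFD values lay near the lowest value of 0.55, and an offset of 16 gave 2.25 and 1.87.

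Partners of Cenph in the same group did not all follow it. Cenpk rose by 4.18 ± 0.48 at 18 weeks and 3.28 ± 0.48 at 39 weeks on the log2 scale, and Cenpm rose by 0.99 ± 0.22 and 1.40 ± 0.22. The difference for Cenpi, which belongs to the same group, was -0.73 ± 0.28 (adjusted p = 0.0606) and 0.07 ± 0.28 (adjusted p = 0.92). Cenpn and Cenpl, which form a pair that contacts the CENP-A nucleosome, rose by 2.78 ± 0.36 and 1.44 ± 0.30 at 18 weeks and by 2.45 ± 0.36 and 1.33 ± 0.30 at 39 weeks.

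Among the subunits of the CENP-O, -P and -Q group, Cenpp rose at both ages, by 2.86 ± 0.35 and 2.67 ± 0.35. Cenpq rose at 18 weeks by 1.96 ± 0.39 (adjusted p = 0.00204) and had a difference of 0.43 ± 0.39 (adjusted p = 0.68) at 39 weeks. Cenpo gave -0.40 ± 0.25 and -0.01 ± 0.25 on the probe used. Cenpt, a histone-fold protein that recruits the Ndc80 complex, gave -0.18 (adjusted p = 0.573) and 0.58 (adjusted p = 0.162), and its partner Cenpw rose by 0.59 ± 0.21 (adjusted p = 0.0417) and 0.68 ± 0.21 (adjusted p = 0.0459). The Cenpw call at 39 weeks was lost when all genes were fitted (adjusted p = 0.0557). Cenpc1, which encodes CENP-C, the scaffold that binds CENP-A chromatin directly, gave -0.52 at both ages (adjusted p = 0.0634 and 0.128), and it was the gene called as a fall at 18 weeks under set blocking (-0.73, adjusted p = 0.0269).

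Cenpb is the centromere protein that binds a DNA motif in satellite repeats and is made throughout the cell cycle. Array by array, its log2 intensity was 10.61, 10.93, 10.91, 10.82 and 10.50 in young_HFD and 10.62, 10.39, 10.63, 10.74 and 10.91 in young_CRD. At the later age they were 10.79, 10.48, 10.71, 10.53 and 10.87 on HFD and 10.53, 10.43, 10.37, 10.42 and 10.52 after CRD. All 20 values lay between 10.37 and 10.93 and the groups overlapped at both ages, with differences of -0.09 ± 0.13 (limma adjusted p = 0.635) and -0.22 ± 0.13 (adjusted p = 0.429).

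In the outer kinetochore the Ndc80 complex rose unevenly. Spc24, 1 of the 2 subunits that anchor the complex to the inner kinetochore, had log2 intensities of 5.04, 5.86, 4.93, 4.19 and 4.37 in young_HFD and 7.98, 7.44, 7.07, 8.69 and 8.15 in young_CRD. In aged islets they were 5.05, 4.78, 5.08, 4.49 and 5.48 on HFD and 7.34, 7.09, 7.86, 7.12 and 7.84 after CRD. The diets did not overlap at either age, and the log2 fold changes were 2.99 ± 0.32 (limma adjusted p = 1.61e-06) and 2.47 ± 0.32 (adjusted p = 2.77e-05).

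Ndc80, whose product holds the microtubule, is also given by array after its values were seen. The gene read, as log2 intensity, 1.75, 4.30, 2.77, 2.14 and 2.62 in young_HFD and 7.05, 6.24, 6.02, 7.56 and 7.43 in young_CRD. The older mice gave 2.43, 2.23, 1.77, 1.74 and 2.24 on HFD and 6.42, 5.77, 6.94, 6.21 and 6.99 after CRD. Again no HFD array reached a CRD array, with log2 fold changes of 4.14 ± 0.40 (adjusted p = 1.25e-06) and 4.38 ± 0.40 (adjusted p = 9.5e-07).

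The other two subunits of the complex showed smaller differences. Nuf2, the partner of Ndc80 at the microtubule end, gave 0.47 (adjusted p = 0.3) at 18 weeks and rose by 1.11 ± 0.34 (adjusted p = 0.0492) at 39 weeks, a call lost when all genes were fitted (adjusted p = 0.0711). Spc25, the partner of Spc24, rose by 0.96 ± 0.33 (adjusted p = 0.0408) at 18 weeks, also lost when all genes were fitted (adjusted p = 0.0545). The Spc25 probe was bright, with a mean log2 intensity of 13.15, and whether it reads Spc25 alone was not tested. Of the Mis12 complex, which joins the inner kinetochore to the Ndc80 complex, Dsn1 rose by 3.33 ± 0.41 and 2.36 ± 0.41. Mis12 rose by 0.93 ± 0.30 (adjusted p = 0.0303) at 18 weeks and gave 0.26 (adjusted p = 0.7) at 39 weeks. Under set blocking the differences at 18 weeks were 0.42 for Mis12 (adjusted p = 0.4) and 0.45 for Spc25 (adjusted p = 0.443), neither a call.

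Both genes of the motor and corona rose at both ages. Cenpf encodes a large corona protein of the outermost kinetochore, and its log2 intensities were 4.01, 1.12, 4.26, 3.07 and 4.18 in young_HFD and 7.18, 6.18, 6.13, 7.93 and 7.60 in young_CRD. For the older animals they were 4.21, 3.65, 2.50, 2.60 and 3.41 on HFD and 6.34, 5.77, 7.28, 6.62 and 7.43 after CRD. One young_HFD array, at 1.12, was far below the other four, and no HFD array reached any CRD array. The log2 fold changes were 3.68 ± 0.53 (limma adjusted p = 6.87e-05) and 3.42 ± 0.53 (adjusted p = 0.000237).

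Cenpe encodes the kinesin motor that moves chromosomes toward the spindle equator, and its arrays were picked after the values were seen. They read 2.21, 3.94, 3.22, 1.93 and 1.88 in young_HFD and 7.28, 6.53, 6.59, 8.32 and 8.05 in young_CRD. At 39 weeks they were 1.96, 2.55, 1.78, 2.87 and 2.96 on HFD and 6.32, 5.91, 7.49, 6.71 and 7.44 after CRD. The groups were separate at both ages, with log2 fold changes of 4.72 ± 0.45 (adjusted p = 1.01e-06) and 4.35 ± 0.45 (adjusted p = 4.09e-06).

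The 3 subunits of the Ska complex, which helps kinetochores hold on to shortening microtubules, differed among themselves. Ska1 rose by 2.16 ± 0.33 and 1.79 ± 0.33 on the log2 scale at the 2 ages. Ska2 rose by 0.92 ± 0.29 (adjusted p = 0.0336) at 18 weeks and gave 0.65 (adjusted p = 0.247) at 39 weeks. Ska3 gave -0.21 (adjusted p = 0.651) and -0.20 (adjusted p = 0.801).

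**Figure D3:**
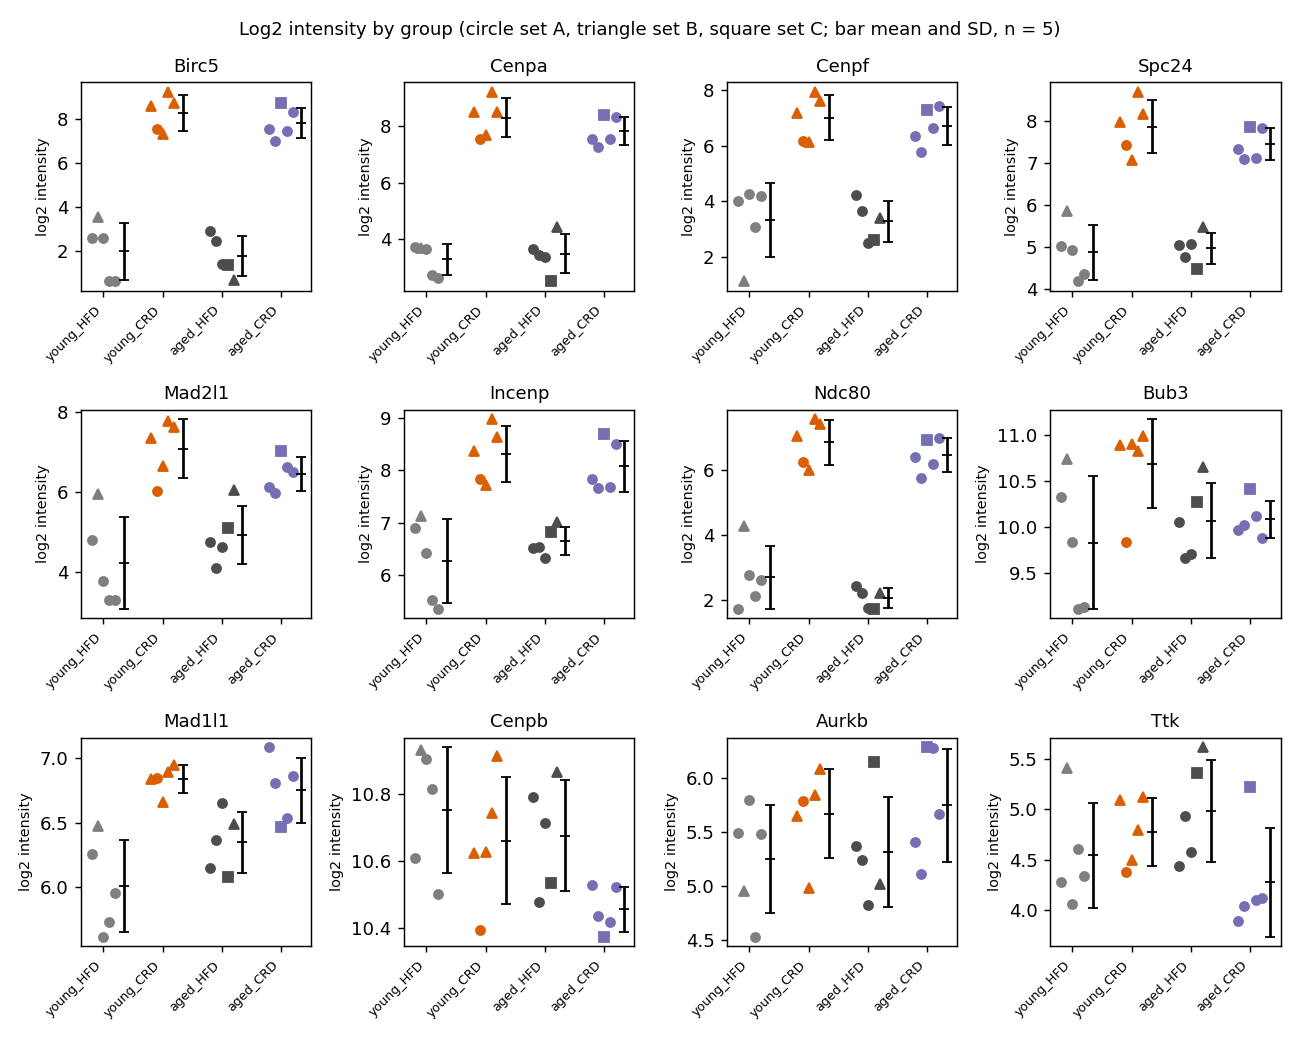
Log2 intensity (y axis, with a scale of its own in each panel) of 12 genes on every array by group, with the mean and SD of 5 arrays as a bar and the array set as the marker shape. Birc5, Cenpa, Cenpf, Spc24, Ndc80 and Incenp separate CRD from HFD at both ages, Mad2l1 and Mad1l1 at 18 weeks, and Cenpb, Aurkb and Ttk overlap.

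Of the 6 spindle checkpoint genes, 3 rose at 18 weeks and 1 at 39 weeks in the fit of all genes. Mad2l1 encodes Mad2, which forms the inhibitor of the anaphase-promoting complex. Its log2 intensities were 4.81, 5.96, 3.77, 3.29 and 3.29 in young_HFD and 7.35, 6.03, 6.65, 7.79 and 7.63 in young_CRD. In the older mice they were 4.74, 4.09, 4.63, 5.11 and 6.05 on HFD and 6.12, 5.98, 7.04, 6.63 and 6.51 after CRD. The groups were separate at 18 weeks and overlapped at 39 weeks, where an HFD array at 6.05 was above a CRD array at 5.98. The log2 fold change was 2.86 ± 0.46 (limma adjusted p = 0.00021) at 18 weeks and 1.53 ± 0.46 (adjusted p = 0.0441) at 39 weeks, the latter not a call when all genes were fitted (adjusted p = 0.0666). Under set blocking the 2 values were 1.85 and 1.87, both calls.

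Mad1l1 encodes Mad1, the kinetochore anchor of Mad2. On the log2 scale its intensities were 6.26, 6.47, 5.62, 5.73 and 5.96 in young_HFD and 6.84, 6.85, 6.66, 6.90 and 6.95 in young_CRD. At the later age they were 6.15, 6.36, 6.65, 6.08 and 6.49 on HFD and 7.09, 6.80, 6.47, 6.54 and 6.86 after CRD. The groups were separate at 18 weeks only, where the log2 fold change was 0.83 ± 0.18 (limma adjusted p = 0.00272), against 0.41 ± 0.18 (adjusted p = 0.202) at 39 weeks.

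Bub3 encodes the protein that carries Bub1 and BubR1 to kinetochores. Array by array, its log2 intensity was 10.34, 10.74, 9.84, 9.12 and 9.14 in young_HFD and 10.89, 9.84, 10.90, 10.83 and 11.00 in young_CRD. In aged islets they were 10.06, 9.67, 9.71, 10.28 and 10.65 on HFD and 9.97, 10.03, 10.42, 10.13 and 9.89 after CRD. The groups overlapped at both ages, and the rise at 18 weeks of 0.86 ± 0.30 (limma adjusted p = 0.0401) was lost with all genes fitted (adjusted p = 0.0526) and under set blocking (0.25, adjusted p = 0.579). At 39 weeks the difference was 0.01 ± 0.30 (adjusted p = 0.986).

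Bub1b, which encodes the checkpoint kinase-like protein BubR1, rose by 3.38 ± 0.50 at 18 weeks and 2.70 ± 0.50 at 39 weeks. Bub1, a checkpoint kinase, gave -0.54 (adjusted p = 0.159) and -0.26 (adjusted p = 0.678) on the probe used. Ttk, the kinase Mps1 that starts checkpoint signalling, is given by array after its values were seen, since it ran against the set at 39 weeks. The gene read, as log2 intensity, 4.44, 4.93, 4.58, 5.36 and 5.62 in aged_HFD and 3.90, 4.04, 5.22, 4.10 and 4.12 in aged_CRD. The CRD array of set C, at 5.22, lay within the HFD range and the other four lay below all HFD arrays. The difference was 0.23 ± 0.30 (limma adjusted p = 0.584) at 18 weeks and -0.71 ± 0.30 (adjusted p = 0.206) at 39 weeks, and under set blocking in the fit of all genes the latter was a fall of -0.53 (adjusted p = 0.0426).

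Both genes of the RZZ complex, which brings dynein and Mad1 to kinetochores, rose at 18 weeks. Zwilch, again picked after its values were seen, had log2 intensities of 0.63, 0.67, 1.99, 0.64 and 0.64 in young_HFD and 5.61, 4.38, 4.47, 5.97 and 5.75 in young_CRD. The older mice gave 1.38, 1.06, 0.63, 1.28 and 1.64 on HFD and 3.99, 3.80, 5.38, 4.56 and 4.47 after CRD. On 4 of the 5 young_HFD arrays it was close to 0.55, the lowest value on any array, so its log2 fold changes of 4.33 ± 0.36 and 3.24 ± 0.36 depend on a background level that is not known. Zw10, a subunit that also works in vesicle traffic, rose by 0.87 ± 0.19 (adjusted p = 0.00294) and gave 0.41 ± 0.19 (adjusted p = 0.232) at 39 weeks.

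In the chromosomal passenger complex, 2 of the 4 subunits rose at both ages and the other two were not called at either. Birc5 encodes survivin, which docks the complex at the centromere. Its log2 intensities were 2.59, 3.53, 2.58, 0.63 and 0.62 in young_HFD and 8.58, 7.57, 7.34, 9.25 and 8.73 in young_CRD. For the older animals they were 2.93, 2.47, 1.41, 1.37 and 0.67 on HFD and 7.57, 7.01, 8.72, 7.47 and 8.31 after CRD. The lowest CRD array, at 7.01, stood far above the highest HFD array, at 3.53, and the log2 fold changes of 6.30 ± 0.55 (limma adjusted p = 1.42e-07) and 6.04 ± 0.55 (adjusted p = 3.67e-07) were the largest of the 40 genes. Several HFD arrays lay near the lowest value of 0.55, and with an offset of 16 added to each intensity the 2 values were 3.98 and 3.61.

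Incenp encodes the scaffold of the complex. On the log2 scale its intensities were 6.91, 7.13, 6.43, 5.53 and 5.36 in young_HFD and 8.36, 7.83, 7.72, 8.97 and 8.64 in young_CRD. At 39 weeks they were 6.53, 6.54, 6.33, 6.83 and 7.01 on HFD and 7.84, 7.66, 8.70, 7.67 and 8.49 after CRD. The diets did not overlap, and Incenp rose by 2.03 ± 0.33 (limma adjusted p = 0.000213) and 1.42 ± 0.33 (adjusted p = 0.00861).

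Aurkb encodes the kinase of the complex, Aurora B, and is given by array after its values were seen. It read 5.49, 4.95, 5.80, 4.53 and 5.48 in young_HFD and 5.65, 5.78, 4.98, 5.84 and 6.08 in young_CRD. At 39 weeks it read 5.37, 5.24, 4.82, 6.15 and 5.01 on HFD and 5.41, 5.11, 6.29, 6.28 and 5.66 after CRD. The groups overlapped at both ages, with differences of 0.42 ± 0.30 (limma adjusted p = 0.285) and 0.43 ± 0.30 (adjusted p = 0.466). Cdca8, the subunit borealin, gave -0.15 (adjusted p = 0.684) and 0.45 (adjusted p = 0.393).

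Probes of 1 gene did not always tell the same story. Of the 40 genes, 7 had over 1 probe, and fitted as separate rows over 30010 probes they gave the following differences. For Cenpw the second probe rose by 3.47 ± 0.35 (limma adjusted p = 1.88e-06) at 18 weeks and 3.07 ± 0.35 (adjusted p = 1.44e-05) at 39 weeks, against 0.59 and 0.68 for the probe that stands for the gene. For Bub1 the second probe rose by 1.31 ± 0.43 (adjusted p = 0.0395) at 18 weeks and the third gave 0.50 ± 0.42, where the brightest gave -0.54. The second Cenpo probe rose by 1.50 ± 0.32 (adjusted p = 0.00379) at 18 weeks, where the brightest gave -0.40. The reverse held for Bub1b, whose second probe gave 1.35 ± 0.55 (adjusted p = 0.091) and -0.21 ± 0.55 against 3.38 and 2.70, and for Mis12, whose second probe gave -0.15 and -0.00 against 0.93 and 0.26. With all probes of a gene averaged in the fit of all genes, Bub1 gave 0.42 and 0.69 (adjusted p = 0.22 and 0.114), and the rise of Bub1b at 39 weeks was no longer a call (1.25, adjusted p = 0.132). The probes of Cenpa and Cenpk rose together. The files do not say which transcript a probe reads, so low changes of the single-probe genes Hjurp, Aurkb, Cdca8 and Ska3 rest on 1 probe each.

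**Figure D4:**
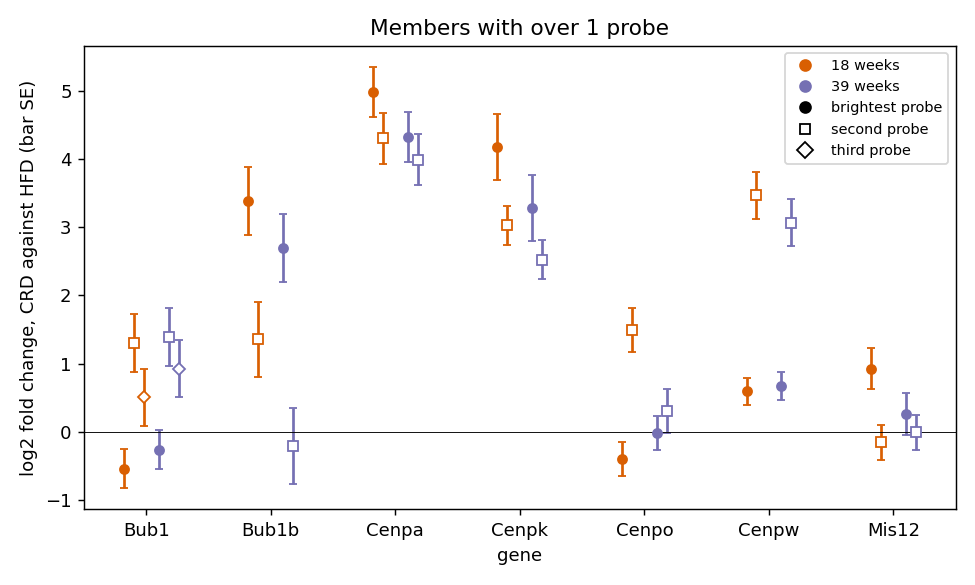
Log2 fold change between CRD and HFD (y axis, bar SE) for each probe of the 7 genes with over 1 probe, at 18 weeks (orange) and 39 weeks (purple), with the brightest probe as a filled circle. The probes of Cenpa and of Cenpk lie together above 2.5, while those of Bub1, Bub1b, Cenpo and Cenpw lie apart.

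The CRD differences at the 2 ages ran in parallel over the 40 genes. As a description across genes that share arrays, which are not independent replicates, the 2 sets of log2 fold changes correlated at r = 0.952 over the 40 genes and at r = 0.28 over all 26159 genes, and the 2 comparisons have no array in common. The difference was larger at 18 weeks for 29 of the 40 genes, as for 17450 of all 26159 genes.

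**Figure D5:**
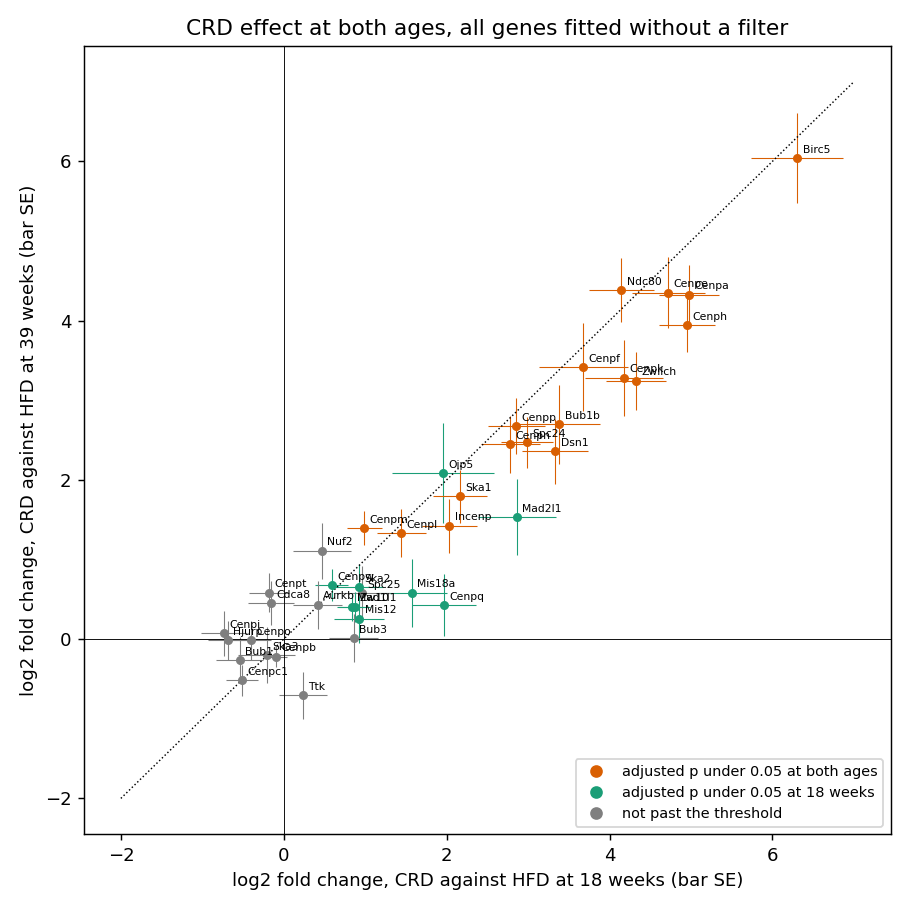
Log2 fold change between CRD and HFD at 18 weeks (x axis) and 39 weeks (y axis) for the 40 genes in the fit of all genes, with bars of 1 SE, colours by call and the dotted line marking equality. The 17 genes called at both ages run along the line from Cenpm to Birc5 at 6.30 and 6.04, and Mad2l1 and Cenpq lie below it.

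Whether the CRD difference itself changed with age was tested gene by gene. In the filtered fit 0 of the 26 genes passed (1 at an unadjusted p under 0.05, and 0% of the genes fitted), and in the fit of all genes 0 of 40 passed (4 at an unadjusted p under 0.05). With arrays weighted by quality 6 of the 26 passed, where 18.0% of genes were higher and 26.2% lower. The difference of the CRD effects was -1.53 ± 0.55 for Cenpq (limma adjusted p = 0.261, all genes fitted). For Mad2l1 it was -1.33 ± 0.66 (limma adjusted p = 0.222), while blocking the array sets gave 0.02. For Birc5 it was -0.26 ± 0.77 and for Cenpa -0.66 ± 0.51.

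The comparisons of age made few calls among these genes. Between 39 and 18 weeks on HFD, 0 of 26 genes in the filtered fit and 0 of 40 in the fit of all genes were called by limma (1 in each at an unadjusted p under 0.05), where 0.071% of the genes in the filtered fit rose and 0.0218% fell and 0% in the fit of all genes did either. With arrays weighted by quality 2 of the 26 were called, where 2.82% of genes rose and 5.94% fell. After CRD, 0 of 26 and 0 of 40 were called (5 and 7 at an unadjusted p under 0.05), where 0% rose and 0.0273% fell in the filtered fit and 0.199% rose and 0.413% fell in the fit of all genes. With arrays weighted 18 of the 26 were called, where 28.4% of genes rose and 49.0% fell, so the set was not called more often than genes at large. The median over all genes fitted was itself -0.18 on the log2 scale between the CRD groups, close to the -0.16 of the 26 genes.

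Cenpc1 was lowest in the oldest CRD mice, and its arrays are given after the values were seen. Array by array, its log2 intensity was 8.48, 8.70, 9.24, 9.19 and 8.86 in young_HFD and 8.08, 7.78, 7.92, 8.18 and 8.64 in aged_HFD. After CRD they were 8.60, 7.88, 8.61, 8.46 and 8.33 in young_CRD and 7.68, 7.72, 7.57, 7.23 and 7.81 in aged_CRD. It was the 1 gene of the 40 whose CRD groups did not overlap between ages (3.55% of all genes were lower without overlap and 1.38% higher). On HFD 0 of the 40 were separate between ages (0.287% of all genes higher and 0.726% lower). The age difference was -0.77 ± 0.20 on HFD (limma adjusted p = 0.102) and -0.78 ± 0.20 after CRD (adjusted p = 0.1). Under set blocking the first became a call (-0.79, adjusted p = 0.0479, in a fit where 0.164% of genes rose and 0.748% fell with age) and the second was -0.51 (adjusted p = 1).

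Genes that work beside the kinetochore set were taken from lists that share no gene with it. In the fit of all genes, 13.3% of genes rose and 5.77% fell at 18 weeks, and 2.93% rose and 3.26% fell at 39 weeks. The median log2 fold changes over all genes were 0.03 and 0.05. Of 24 other kinetochore genes in that fit, 11 rose and 0 fell at 18 weeks and 8 rose and 0 fell at 39 weeks. Their medians were 0.78 and 0.52. Plk1, a mitotic kinase at kinetochores, rose by 5.44 ± 0.37 and 5.31 ± 0.37, and Sgo1, which protects cohesion at centromeres, by 2.46 ± 0.37 and 1.69 ± 0.37. Of 23 genes of the anaphase-promoting complex and its regulators, 9 rose and 2 fell at 18 weeks and 5 rose and 0 fell at 39 weeks, with medians of 0.51 and 0.06. Cdc20, the activator that the checkpoint holds back, rose by 4.82 ± 0.39 and 4.68 ± 0.39, while the core subunit Anapc1 rose by 1.29 ± 0.31 at 18 weeks. Some genes under the limit of the filter differed more than Sgo1 and Anapc1. Knstrn, of the first list, had means of 1.17 in young_HFD and 5.34 in young_CRD. Espl1, of the second, had means of 3.01 and 6.61.

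Markers of cycling cells moved alongside the set. Mki67, the gene of the proliferation antigen Ki-67, rose by 3.87 ± 0.38 (limma adjusted p = 6.38e-07) and 3.57 ± 0.38 (adjusted p = 2.96e-06). Top2a, a topoisomerase of dividing cells, rose by 5.09 ± 0.47 and 4.79 ± 0.47.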

How the data were processed

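Islet RNA of 20 mice was hybridised to 1-colour Agilent arrays, and, per the submitters' processing notes, images were read with Agilent Feature Extraction 11. The deposited table holds 1 linear intensity per probe and array for 59448 probes. All 20 columns hold the same sorted values, with a median of 36.39, so the authors' intensities had been quantile normalized. For background correction and detection flags the sources used here give nothing, so the background level of dim probes is not known. The labels give 5 mice per group and nothing on litters or batches. Sample titles also carry a number that recurs between groups, its meaning is not given, and pairing by it was not tested.

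Intensities were used as log2. The platform table gave 1 symbol to 30010 probes, several to 0 and none to 29438, and all 30010 matched RefSeq gene identifiers, which changed 0 symbols. The brightest probe stood for each of the 3324 genes with over 1. The 26159 genes, less the lowest 30%, were fitted in R 4.3.3 by lmFit and eBayes of limma 3.58.1 (4 groups, 20 arrays), with Benjamini-Hochberg adjustment and a threshold of 0.05. Fold changes are log2 with their SE. The script was tested on simulated data. The number of arrays limits the precision. The genes and lists were chosen with earlier results of these data known.

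All 40 genes may be named. Values of every array are given for the 6 genes with the largest rise at 18 weeks among those of the 26 genes passing the filter that were called at both ages, and for Cenpa, Bub3, Mad1l1 and Cenpb. From the lists of other genes, those with the largest change at 18 weeks among the called in the filtered fit are named. Alternatives were no filter on dim genes, an offset of 16, the mean of all probes of a gene (with the filter and without), array weights, array set or replicate number as a block, single array sets, only the groups of a contrast, and leaving out each array.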

Additional observations from a re-analysis of the deposited data

Results flagged for a closer look

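In each group of 5 arrays, a gene was looked at again where 1 array lay far from the rest by Dixon's criterion. Of 160 groups tested (40 genes in 4 groups), 11 met it, and chance alone gives about 1 in 20 groups. Among young_HFD arrays, Cenph read 2.34 in replicate 1 against a group median of 0.88, Bub1 read 6.86 in replicate 2 against 7.87, and Zwilch read 1.99 in replicate 3 against 0.64. In young_CRD, replicate 2 read 8.14 for Cenpt against 7.16 and 9.84 for Bub3 against 10.89, and it is the only array of that group in array set A. Among aged_HFD arrays, Oip5 read 1.17 in replicate 3 against 0.57 and Cenpn 2.31 in replicate 4 against 3.64, while replicate 5 read 13.14 for Hjurp against 14.23 and 0.965 for Bub1b against 3.16. In aged_CRD, replicate 3 read 6.58 for Mis18a against 5.72 and 5.22 for Ttk against 4.10, and it is the only array of that group in array set C.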

How the results depend on the processing

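The calls below are of 26 genes after the filter, or of 40 without it, and the alternatives that combine 2 changes, use array set B alone or fit each probe were chosen after seeing the data. At 18 weeks 16 genes were called (24.9% of all genes fitted). The number was 26 with no filter and also with an offset of 16 and no filter, 25 with the mean of all probes and no filter, 3 in array set A alone and 4 in set B alone, which hold fewer arrays, and 11 to 18 when 1 array was left out. At 39 weeks 10 were called, 17 with no filter and also with the mean of all probes and no filter, 18 with an offset of 16 and no filter, 21 with no filter and the array set block, and 7 to 10 when 1 array was left out. For age on HFD, 0 were called, 1 with the array set block, 2 with array weights (8.77% of all genes) and 0 to 1 with 1 array left out (1 without young_HFD replicate 1 or without aged_HFD replicate 5, where 1.55% and 0.546% of all genes were called). For age after CRD, 0 were called, 5 with only the groups of the contrast (26.3% of all genes), 18 with array weights (77.4%) and 0 to 6 with 1 array left out (6 without young_CRD replicate 2, 35.3%). For the difference between the CRD effects, 0 were called, 6 with array weights (44.3%) and 0 to 2 with 1 array left out (2 without young_HFD replicate 2, 21.2%). Of single calls at 18 weeks, Hjurp was kept in 5 of the 20 fits that left out an array, Cenpw in 9, Bub3 in 13, Mis12 and Spc25 in 14, and at 39 weeks Nuf2 in 5, Cenpw and Mad2l1 in 7, and all other calls in every fit. Where no construction shows it, the cause was not tested.

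Replicate numbers were not used to pair the arrays in the report's settings. Of 30 same-numbered pairs, 10 had a correlation of deviations over 0.1 (range -0.85 to 0.86). Differences between array sets were left in these correlations, so they cannot exclude pairing. With the replicate block 11 genes were called at 18 weeks (17.5% of all genes fitted) and 7 at 39 weeks (5.48%). In each of the other comparisons 0 were called (at most 0.0109% of all genes fitted).

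Fitted by probe, signs also turned for called genes. The second probe of Mis12 gave -0.15 at 18 weeks, where the brightest was called at 0.93. The second probe of Bub1b gave -0.21 at 39 weeks, where the brightest was called at 2.70. With 1 value per gene, signs turned only for genes not called in the report's settings. At 18 weeks the value was 0.14 for Cenpi, 0.14 for Cenpo, 0.14 for Cenpt, 0.20 for Ska3, 0.29 for Bub1 and 0.63 for Cdca8 in set B alone. It was 0.53 for Cenpt in set A alone, 0.32 for Cenpt and 0.30 for Cdca8 with the array set block, filtered or not, -0.29 for Ttk with that block and no filter, 0.55 for Cenpo with the mean of its probes, filtered or not, 0.42 for Bub1 with that mean and no filter, and -0.0078 for Aurkb with array weights. At 39 weeks it was -0.13 for Cenpi and 0.0622 for Cenpo in set A alone, -0.11 for Cenpi with the array set block, filtered or not, -0.22 for Cenpi with array weights, 0.14 for Cenpo with the mean of its probes, filtered or not, and 0.69 for Bub1 with that mean and no filter.

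Dim genes limit sizes more than calls. With an offset of 16 the fold change at 18 weeks fell from 6.30 to 3.98 for Birc5, from 4.95 to 2.25 for Cenph and from 4.33 to 1.61 for Zwilch.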
